A study of Mus musculus with 10 samples.

Results

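The regions described here are 100-bp tiles of the mouse autosomes that were methylated in sperm, high on average in zygotes and low on average in blastocysts. A tile entered the set when it had at least 10 counts in both sperm libraries and at least 5 in each of the 8 embryo libraries, and at least 80% methylation in both sperm libraries. Its mean over the 4 zygote libraries also had to be at least 70% and its mean over the 4 blastocyst libraries at most 20%, with WT and CKO libraries averaged alike. Of 14506 autosomal tiles with this coverage, 4778 were sperm-methylated by the same limit, 1732 of those were zygote-high, and 302 met the whole rule. The 302 tiles were thus 6.32% of the sperm-methylated tiles and 17.4% of the zygote-high ones. In all, 183899 autosomal tiles had a count in any library, so most of the genome read was too thin to be asked. Because measured levels chose the tiles, their sperm, zygote and blastocyst levels and the fall between the stages are given as descriptions only.

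The assay was reduced representation bisulfite sequencing (RRBS), in which the enzyme MspI cuts DNA at CCGG sites and CpG-rich fragments are read after bisulfite treatment. There were 5 groups of 2 libraries, described in the labels as biological duplicates. The first was sperm of CAST/EiJ males. The other four were embryos of the cross C57BL/6J x CAST/EiJ, made by in vitro fertilisation. They were zygotes and blastocysts, each either wild-type (WT) or of the genotype that the labels call CKO. These CKO embryos came from mothers without Tet3 in the egg (maternal Tet3 knockout), and the promoter driving that deletion is not given in the sources used here. Zygotes were collected at 13 h after fertilisation in pools of 40 to 50, and blastocysts at 96 h in pools of 4. A library is therefore a mean over several embryos, and over all cells of each blastocyst.

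The paternal genome enters the egg heavily methylated and loses much of that methylation before implantation. In the zygote, the dioxygenase TET3, supplied by the egg, oxidises 5-methylcytosine of the paternal pronucleus to 5-hydroxymethylcytosine and further products. During the cleavage divisions, a mark that is not copied onto the new strand after replication is diluted, and the blastocyst holds the lowest level of the early embryo. Bisulfite treatment leaves 5-methylcytosine and 5-hydroxymethylcytosine alike unconverted, so every percent given here is the sum of both. No source used here says if reads were split by parent, so an embryo value may hold the maternal allele too.

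Total counts per library ran from 1005492 to 2535229. Over the 302 tiles the median count was 37 to 38 in the sperm libraries, 17 to 23 in the zygote libraries and 16 to 18 in the blastocyst libraries. A count is a cytosine read once, and a read that covers several cytosines of a tile is counted at each. Of the 144 tiles with at least 2 cytosine positions, 87 had equal counts at all covered positions in each embryo library. The highest count at a single position, a lower limit on the number of reads, had a median of 12 to 18 in the embryo libraries. At 73 of the 302 tiles no position reached 5 counts in at least 1 embryo library. The exact 95% Clopper-Pearson interval of a tile's percent in 1 library had a median width of 29.5 to 36.9 points in zygotes and 26.5 to 33.6 points in blastocysts. These intervals take each count as a separate read, so they are too narrow where a read is counted at several positions. They also leave out all but counting error, since the reads carry no molecular identifiers.

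In sperm the 302 tiles averaged 96.8% in replicate 1 and 96.4% in replicate 2. The WT zygote libraries averaged 76.8% and 73.9%, and the CKO zygote libraries 82.6% and 82.9%. The WT blastocyst libraries averaged 10.4% and 8.28%, and the CKO blastocyst libraries 14.7% and 15.3%. Every zygote library thus lay far above every blastocyst library, as the rule requires of the averages. Blastocyst medians lay close to 0 in WT (1.67% and 0%) and were 11.1% and 10.7% in CKO. Between 114 and 183 of the 302 tiles had no methylated count at all in a given blastocyst library, and both WT libraries had more such tiles than both CKO libraries (114 and 128). In a given zygote library 81 to 104 tiles were at 100%.

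**Figure D1:**
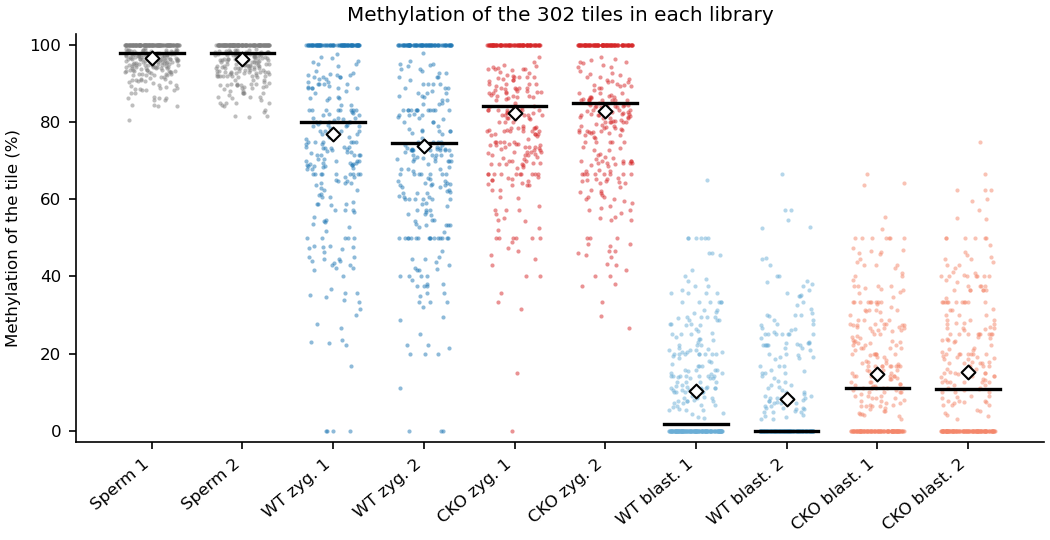
Methylation (%) of the 302 tiles in each of the 10 libraries: each point is a tile, the black bar the median and the white diamond the mean. Sperm libraries sit near 96%, zygote means lie between 73.9% and 82.9% and blastocyst means between 8.28% and 15.3%, while single tiles spread over most of the scale in every embryo library.

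The libraries of a stage often differed widely at the same tile. All 4 zygote libraries were at or above 70% at 53 tiles, and all 4 blastocyst libraries were at or below 20% at 64. Only 9 of the 302 tiles had all 8 embryo libraries on their own side of the limits. At 109 tiles at least 1 zygote library was under 50%, and at 22 at least 1 blastocyst library was over 50%. The lowest zygote library lay above the highest blastocyst library at 247 tiles. That pattern was seen at 10.0% of all covered tiles and 22.5% of sperm-methylated ones, and the rule itself favours it, so nothing is read from the count. The rule was met by the WT libraries alone at 161 of the tiles, by the CKO libraries alone at 172, and by each genotype on its own at 84.

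To see how the tiles read in a library that had no part in choosing them, the rule was applied again with the level of 1 embryo library left out and the same coverage, and the chosen tiles were read in that library. In left-out zygote libraries the chosen tiles stood at the level of sperm-methylated tiles in general. The 398 tiles chosen without WT zygote replicate 1 averaged 56.1% there, and all sperm-methylated tiles 57.3%. The 401 tiles chosen without WT zygote replicate 2 averaged 55.9%, again beside 57.3%. The 297 tiles chosen without CKO zygote replicate 1 averaged 69.8% beside 69.6%, and the 286 chosen without replicate 2 averaged 71.2% beside 69.7%. The share of chosen tiles at or above 70% in the left-out zygote library was 37.2% to 57.9%, against 38.6% to 55.6% of all sperm-methylated tiles. A high level in 3 zygote libraries, together with a low level in blastocysts, was therefore hardly matched by a higher level in the remaining zygote library.

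In left-out blastocyst libraries the chosen tiles were lower than sperm-methylated tiles in general, by 2.72 to 4.39 points. The 323 tiles chosen without WT blastocyst replicate 1 averaged 22.5%, beside 26.9% over all sperm-methylated tiles. The 304 tiles chosen without WT blastocyst replicate 2 averaged 21.7% beside 25.7%. In the CKO libraries, 397 tiles averaged 32.2% beside 35.4%, and 392 tiles averaged 32.3% beside 35.02%. At this minimum of 5 counts all 4 left-out blastocyst libraries thus read below the general level, and all 4 lay above the limit of 20%. The remaining 3 libraries of the stage averaged 10.8% to 11.6% at the same tiles. The lower reading did not hold in every library at higher minimums. With 10 counts, CKO replicate 2 read 35.95% beside 35.93%. With 20 counts, WT replicate 1 read 32.6% beside 30.9% (7 tiles) and CKO replicate 2 read 45.2% beside 37.7% (16 tiles). The other blastocyst libraries stayed below the general level.

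Over the 4 libraries of a stage, left-out readings averaged 63.2% in zygotes and 27.2% in blastocysts, against 79.0% and 12.2% for the 302 tiles in the libraries that chose them. The general levels were 63.5% and 30.7%. Zygote-high tiles with a blastocyst mean of at least 50%, called kept tiles below, were treated in the same way. They read 79.6% in left-out zygote libraries and 44.8% in left-out blastocyst libraries. Kept tiles lay above the tiles of the rule by 11.7 to 21.2 points in each left-out zygote library and by 13.6 to 22.4 points in each left-out blastocyst library. For the tiles of the rule, the name zygote-high therefore describes the means that the rule used. Their high level was not carried over to a zygote library outside the choice. Kept tiles, also zygote-high, did stay above the general level in left-out zygote libraries.

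**Figure D2:**
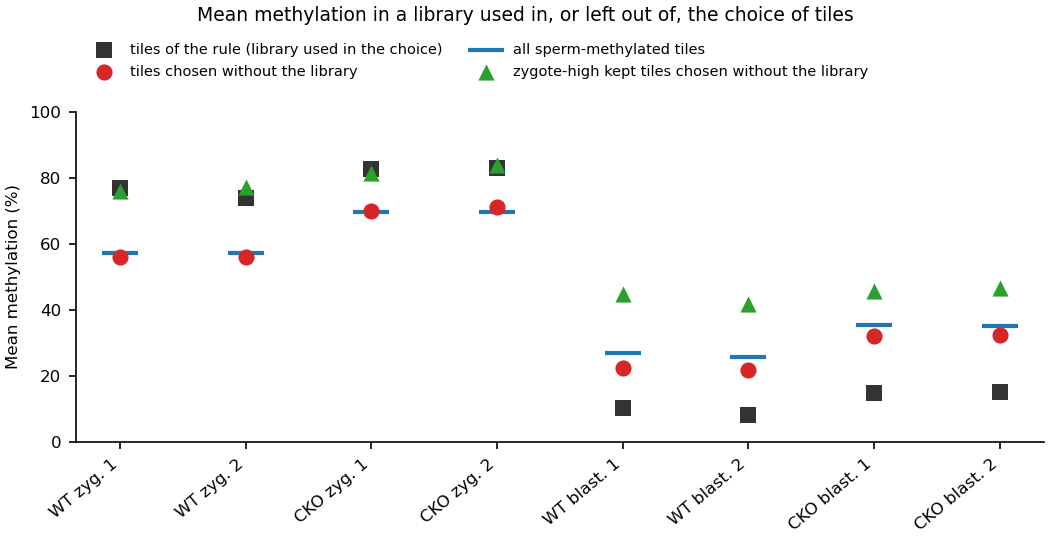
Mean methylation (%) in each embryo library of the 302 tiles (squares), of tiles chosen by the same rule without that library (circles), of all 4778 sperm-methylated tiles (dashes) and of kept tiles chosen without the library (triangles). Circles lie within 1.49 points of the dashes in zygote libraries and 2.72 to 4.39 points below them in blastocyst libraries.

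Readings of the same tile in separate libraries were only loosely related. Over the 4778 sperm-methylated tiles, Pearson's r between any 2 zygote libraries was 0.124 to 0.163, and between any 2 blastocyst libraries 0.117 to 0.291. Over the 395 of these tiles with at least 20 counts in each embryo library, r was 0.211 to 0.275 in zygotes and 0.148 to 0.435 in blastocysts. The points are tiles, which share the depth and cell number of a library, and the values are descriptions.

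The 8 tiles with the most counts over the embryo libraries are given first (coordinates are mm9, counted from 1). They have 3 or 4 positions each, and cytosines on the same read raise the count, so the thinnest embryo library had only 2 to 9 counts at its best-covered position. At chr7:56815101-56815200, with 664 embryo counts at 4 positions, the WT zygotes read 72.4% and 56.0% and the CKO zygotes 88.7% and 77.5%. Its WT blastocysts read 13.8% and 11.3%, and its CKO blastocysts 32.9% and 10.8%. Here the lowest zygote library lay well above the highest blastocyst library. At chr11:104179501-104179600, with 524 counts, zygotes read 96.7% and 73.2% in WT and 88.3% and 84.1% in CKO. The same tile in blastocysts read 13.6% and 0% in WT and 22.8% and 20.0% in CKO. It was high in all 4 zygote libraries and close to or under the limit in all 4 blastocyst libraries.

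Other tiles among the 8 had 1 or 2 zygote libraries under 70%. At chr2:49281801-49281900 the WT zygotes read 87.5% and 61.9% and the CKO zygotes 94.7% and 43.2%, while WT blastocysts read 28.6% and 5.00% and both CKO blastocyst libraries 0%. At chr8:63752301-63752400 the zygotes read 60.6% and 100% in WT and 95.7% and 42.9% in CKO, and 3 of the 4 blastocyst libraries read 0%, with 15.7% in CKO replicate 1. At chr9:30975201-30975300 the zygotes read 100% and 87.5% in WT and 92.0% and 37.5% in CKO. In each of these 3 tiles, CKO zygote replicate 2 was the lowest zygote library, between 37.5% and 43.2%, and all of them still kept the zygotes above the blastocysts.

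The remaining deep tiles lay at chr2:126947701-126947800, chr5:147849601-147849700 and chr14:119096201-119096300. At the first the zygotes read 72.2% and 73.1% in WT and 64.0% and 82.0% in CKO, a narrow spread for this set, and the blastocysts 0% and 22.2% in WT and 12.1% and 0% in CKO. At the second the zygotes were 61.4%, 69.1%, 72.4% and 77.3% in the same order, and the blastocysts 26.3%, 0%, 45.7% and 0%. At the third the WT zygotes both read 100% and the CKO zygotes 82.3% and 68.8%, with blastocysts at 25%, 0%, 28.6% and 0%. In the last pair of tiles, replicate 2 of both genotypes was at 0% in blastocysts and replicate 1 was not.

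**Figure D3:**
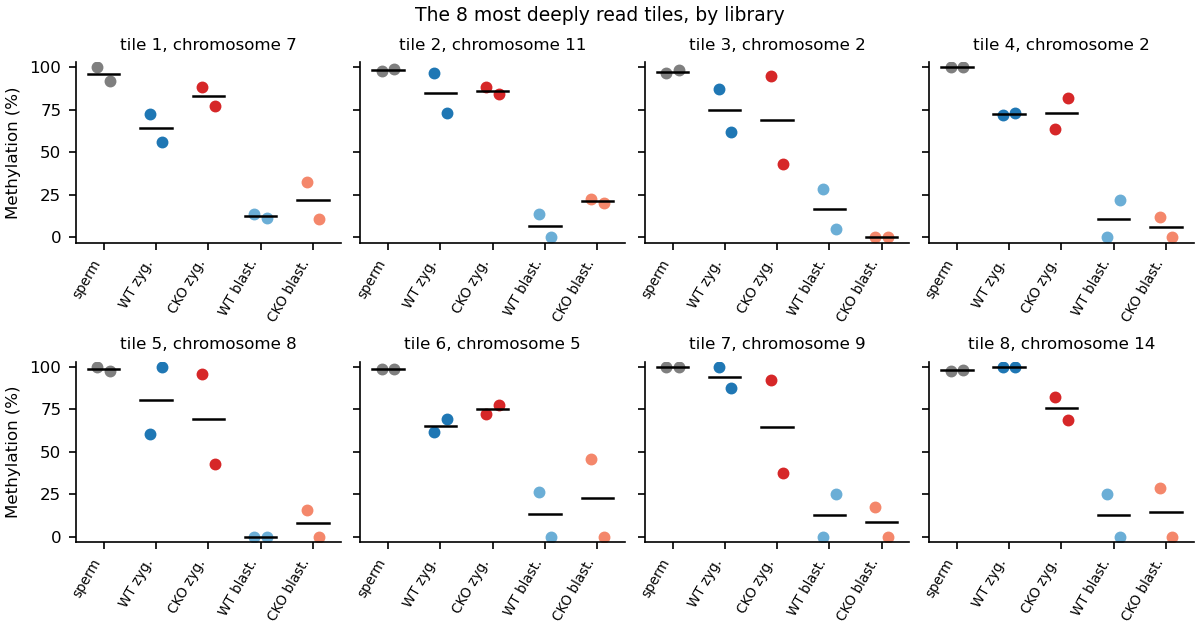
Methylation (%) of the 8 tiles with the most embryo counts, with 1 panel per tile: points are libraries, black bars are group means of 2 libraries. In panels 1 and 2 (chromosomes 7 and 11) zygotes run from 56.0% to 96.7% and blastocysts from 0% to 32.9%, and in panels 3, 5 and 7 a CKO zygote library falls to between 37.5% and 43.2%.

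The largest falls among the 87 tiles with at least 10 summed counts in each embryo library approached the full scale. At chr2:172722501-172722600 the zygotes read 94.7%, 100%, 100% and 100%, and the blastocysts 0%, 0%, 26.7% and 0%, in the order WT replicates 1 and 2, CKO replicates 1 and 2. At chr2:29337501-29337600 the zygotes read 90%, 100%, 90% and 82.2%, and all 4 blastocyst libraries were at 0%. That tile has 5 positions, and its thinnest embryo library had only 2 counts at its best-covered position. At chr7:133964501-133964600 the zygotes read 95.7%, 96.0%, 70.8% and 91.2%, and again all blastocyst libraries were at 0%. Mean levels fell by 92.0, 90.6 and 88.4 points at these 3 tiles. The other two of the 5 largest falls, of 85.9 and 82.0 points, were at chr5:151983101-151983200 and chr13:56549601-56549700.

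In all, 14 of the 302 tiles had no methylated count in any blastocyst library, with zygote means of 74.5% to 90.6%. The deepest was the tile at chr2:29337501-29337600, with 0 of 185 blastocyst counts. With the limit set at 3 methylated counts, that allows a level of up to 1.62%. Its 5 positions share reads, and the highest counts at a single position sum to 37, which allows up to 8.11%. By that stricter reckoning, the limits at the 14 tiles ran from 3.90% to 10.3%. An absence of the mark was thus not shown at any of them. The tiles were picked for reading 0 in these same counts, so a level under the limit was not shown either.

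The edgeR quasi-likelihood test of blastocysts against zygotes, with Benjamini-Hochberg adjustment over all 14506 tiles, uses the contrast that the rule used. It called 6 of the 302 tiles in WT, where 0.200% of all tiles were called, and 11 in CKO, where 0.407% were. No tile was called in both genotypes, and no conclusion is drawn from these counts. The smallest adjusted p in CKO was 0.000254 for chr2:29337501-29337600 (edgeR), and the next was 0.00221 for chr9:7961401-7961500. These counts rested on single libraries and on the method: without 1 library at a time they ran from 0 to 4 in WT and from 0 to 17 in CKO. The WT count was 0 without WT zygote replicate 1, either WT blastocyst library or CKO blastocyst replicate 2, and 2 without CKO blastocyst replicate 1. The CKO count was 17 without WT zygote replicate 1, 4 without either CKO zygote library and 0 to 3 without any 1 of the blastocyst libraries. In the same settings 0.00689% to 0.200% of all tiles were called in WT and 0.00689% to 0.607% in CKO. The likelihood ratio test called 88 of the 302 in WT, beside 2.21% of all tiles, and 81 in CKO, beside 2.32%, and limma called 0 in each, with 0.00% of all tiles.

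CKO and WT embryos were compared at both stages. The rule averaged the genotypes and did not use their difference. Its limits still act on the same values, so the size of the difference is not independent of the choice. Zygotes without maternal Tet3 were more methylated at these tiles: 82.7% ± 0.217 (SD, n = 2) in CKO and 75.4% ± 2.08 (SD, n = 2) in WT. The difference was 7.33 ± 2.09 points, and the 2 genotypes were separated by a gap of 5.70 points between their nearest libraries. Here and below, the ± of a difference is the square root of the summed squared SDs of its groups, not a standard error. In blastocysts CKO stood at 15.0% ± 0.413 (SD, n = 2) and WT at 9.33% ± 1.49 (SD, n = 2). That difference was 5.67 ± 1.55 points, with a gap of 4.33 points between the nearest libraries. With the tiles chosen again, the zygote difference was 4.76 points without WT zygote replicate 2 and 4.24 points without CKO zygote replicate 2. The blastocyst difference was 2.49 points without WT blastocyst replicate 2. Both differences were larger than the spread between replicate libraries. No test was made of these means, since the tiles were chosen by level, and with 2 libraries against 2 an exact two-sided permutation test cannot go below p = 0.333.

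The limits of the rule bound these differences, because a tile can be only so far above 70% or below 20%. With limits of 80% and 10% they were 5.05 points (zygotes) and 5.84 points (blastocysts). With 60% and 30% they were 9.44 and 7.82 points. Over all 4778 sperm-methylated tiles CKO exceeded WT by 12.3 ± 0.0508 points at the zygote stage and by 8.94 ± 0.894 points at the blastocyst stage. The 302 tiles thus showed a smaller genotype difference at both stages than sperm-methylated tiles in general. Among all 1732 zygote-high tiles, the 302 included, CKO exceeded WT by 5.38 ± 0.924 points (zygotes) and 6.28 ± 0.699 points (blastocysts). The 302 tiles lay above this in zygotes (7.33 ± 2.09) and below it in blastocysts (5.67 ± 1.55), each time by less than their own spread. The smaller difference was thus shared by tiles with the same zygote limit. In tiles chosen without the library in which they were read, CKO means exceeded WT means by 14.5 ± 0.969 points (zygotes) and 10.1 ± 0.562 points (blastocysts). Each library was read there at its own tiles. In zygotes these were 398 and 401 tiles for WT and 297 and 286 for CKO. These values are thus not a genotype difference at one set of tiles. They cannot say if the smaller difference than in sperm-methylated tiles in general depends on the choice. Kept tiles, which share the zygote limit, had a CKO excess of 2.53 ± 1.57 points (zygotes) and 3.56 ± 1.14 points (blastocysts).

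WT blastocysts held 12.4% ± 2.00 of the WT zygote level at the 302 tiles, and CKO blastocysts 18.1% ± 0.502 of theirs. The rule set limits on both levels, so these shares are descriptions. Over all sperm-methylated tiles they were 45.8% ± 1.49 in WT and 50.6% ± 0.382 in CKO. In points, the mean of the 302 tiles fell by 66.0 ± 2.56 points in WT and by 67.7 ± 0.467 points in CKO. The genotype difference changed by -1.66 ± 2.60 points between the stages, less than the spread between replicates. The sign of that change turned in several settings, for example to 1.14 without WT zygote replicate 2.

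Tile by tile, CKO was higher than WT at 193 of the 302 tiles in zygotes, lower at 106 and equal at 3, with a median difference of 7.48 points. In blastocysts CKO was higher at 186 and equal at 15, with a median of 5.85 points. Among all sperm-methylated tiles CKO was higher at 67.0% in zygotes and 63.7% in blastocysts, with medians of 11.7 and 9.07 points. Both CKO zygote libraries lay above both WT zygote libraries at 61 of the 302 tiles (20.2%), against 14.0% of all covered tiles and 27.4% of sperm-methylated ones. They lay below both at 25 tiles (8.28%), against 4.52% and 7.64%. In blastocysts CKO lay above at 62 tiles (20.5%, against 13.0% of all and 26.6% of sperm-methylated tiles) and below at 22 (7.28%, against 6.02% and 10.0%). The shares with CKO above WT were thus lower than among sperm-methylated tiles in general and higher than among all covered tiles. Among all 1732 zygote-high tiles, the 302 included, they were 18.8% in zygotes and 23.2% in blastocysts. The lower share in zygotes was thus shared by tiles with the same zygote limit. CKO lay above WT without overlap at both stages at 15 tiles (4.97%), against 3.63% of all and 8.10% of sperm-methylated tiles. It lay below at both stages at 2 tiles (0.662%), against 0.476% and 0.858%. Opposite sides at the stages were seen at 4 tiles with CKO above in zygotes and below in blastocysts (1.32%, against 1.25% and 2.32%). The reverse was seen at 5 (1.66%, against 0.917% and 1.74%).

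**Figure D4:**
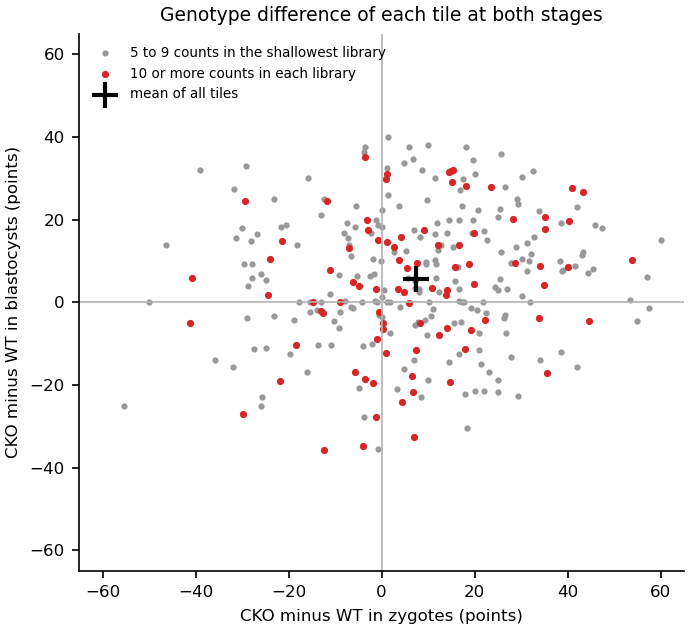
CKO minus WT methylation (points) of each of the 302 tiles in zygotes (x axis) and blastocysts (y axis), with red points for the 87 tiles with at least 10 counts in each embryo library and a cross for the mean. The cross lies at 7.33 and 5.67 points, and single tiles scatter on both sides of 0 at both stages.

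No tile of the set passed the genotype test. With edgeR's quasi-likelihood test and Benjamini-Hochberg adjustment over 14506 tiles, 0 of 302 were called in zygotes and 0 in blastocysts, and 0.00% of all tiles at either stage. For the genotype by stage interaction, 0 of 302 were called and 0.00689% of all tiles, a single tile that was not sperm-methylated. At an unadjusted p under 0.05, 12 tiles (3.97%) passed in zygotes, beside 4.07% of all tiles and 8.56% of sperm-methylated ones. CKO was higher at 11 of the 12, a call made at 3.49% of all tiles and 7.81% of sperm-methylated ones. In blastocysts 3 tiles passed (0.993%), beside 2.63% of all tiles and 5.63% of sperm-methylated ones, and 3 for the interaction, beside 2.14% and 4.46%. By the quasi-likelihood test the shares of both directions were thus at or below those of all tiles. The edgeR likelihood ratio test and limma also called 0 of the 302 in each of the 3 comparisons after adjustment. At an unadjusted p under 0.05 the likelihood ratio test counted 35 tiles in zygotes (11.6%), beside 7.20% of all tiles and 12.9% of sperm-methylated ones. It counted 39 in blastocysts (12.9%), beside 8.22% and 14.4%, and 35 for the interaction (11.6%), beside 6.56% and 11.5%. By that test the shares were above those of all tiles and close to those of sperm-methylated tiles. The limma counts were 30 in zygotes (9.93%), beside 7.71% and 14.3%, 20 in blastocysts (6.62%), beside 7.22% and 12.5%, and 13 for the interaction (4.30%), beside 5.91% and 10.3%. The smallest adjusted p over the set was 0.732 in zygotes (edgeR). With 2 libraries a group and this depth, a tile that misses the threshold is not shown to be equal between genotypes.

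The tiles with the largest genotype differences in zygotes are given among the 87 with at least 10 summed counts in each embryo library. Only 34 tiles had 10 or more counts at a single position in each embryo library, and at the tiles named below the thinnest embryo library had 4 to 18 counts at its best-covered position. At chr3:127102701-127102800 both CKO zygote libraries read 100% and the WT libraries 31.6% and 60.7%, a difference of 53.9 points. At chr5:115973101-115973200 CKO read 93.5% and 100% and WT 42.1% and 62.2%. At chr13:58134701-58134800 CKO read 100% and 84.3% and WT 43.6% and 59.0%. In these 3 tiles all CKO libraries lay above all WT libraries in zygotes. The fourth, chr14:25726501-25726600, rested on 1 library: WT read 0% and 100%. The fifth, chr12:87007601-87007700, had WT at 53.6% and 50.0% and CKO at 84.2% and 100%.

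In the other direction, chr10:79273701-79273800 read 100% and 91.7% in WT zygotes and 70% and 40% in CKO. At chr9:3237901-3238000 WT zygotes read 100% and 90.9% and CKO zygotes 65.8% and 65.4%. The genotypes did not overlap at either tile. WT was also above CKO without overlap at chr4:124812901-124813000 and chr14:119096201-119096300, by 29.4 and 24.5 points.

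In blastocysts, chr5:76424901-76425000 read 7.14% and 0% in WT and 37.5% and 33.3% in CKO. At chr5:111027401-111027500 and at chr4:56945301-56945400 both WT blastocyst libraries read 0%, beside 26.7% and 36.4% in CKO at the first and 25.8% and 36.4% at the second. At chr9:120663101-120663200 WT read 0% and 7.50% and CKO 44.4% and 26.9%. The genotypes did not overlap at these 4 tiles. At chr4:141134101-141134200 the excess of CKO came from 1 library, with 66.7% and 3.85% beside 0% in both WT libraries.

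Lower CKO levels in blastocysts were seen at chr6:51501801-51501900, where WT read 36.4% and 35%, and at chr11:109215201-109215300, where WT read 30.8% and 38.9%. At chr7:35427001-35427100 WT read 20.4% and 44.8%. Both CKO libraries were at 0% at all 3 of these tiles. At chr1:160700301-160700400 and chr9:3237901-3238000 single WT libraries of 52.9% and 57.1% carried the difference. None of the tiles named for a genotype difference passed an adjusted test.

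Tiles of the rule had fewer summed counts and fewer cytosine positions than other zygote-high tiles. A read is counted at each position, so fewer reads were not shown. At zygote-high tiles whose lowest embryo count was 5 to 9, 215 of 1061 (20.3%) met the blastocyst limit. With a lowest count of 10 to 19 it was 79 of 527 (15.0%), and with 20 or more it was 8 of 144 (5.56%). The share of kept tiles moved less, at 22.6%, 22.2% and 26.4%. By cytosine positions, 21.0% of zygote-high tiles with 1 position met the rule, 17.4% with 2, 12.5% with 3 and 11.3% with 4 or more, and the kept share rose from 20.0% to 27.0%. Of the 302 tiles, 158 (52.3%) had a single position, against 43.9% of sperm-methylated tiles and 38.2% of kept ones. At a lowest count of 5 to 9, the share that met the rule was 21.6% with 1 position and 11.9% with 4 or more. Summed counts and position number move together in this assay, and their part in the makeup of the set was not tested.

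**Figure D5:**
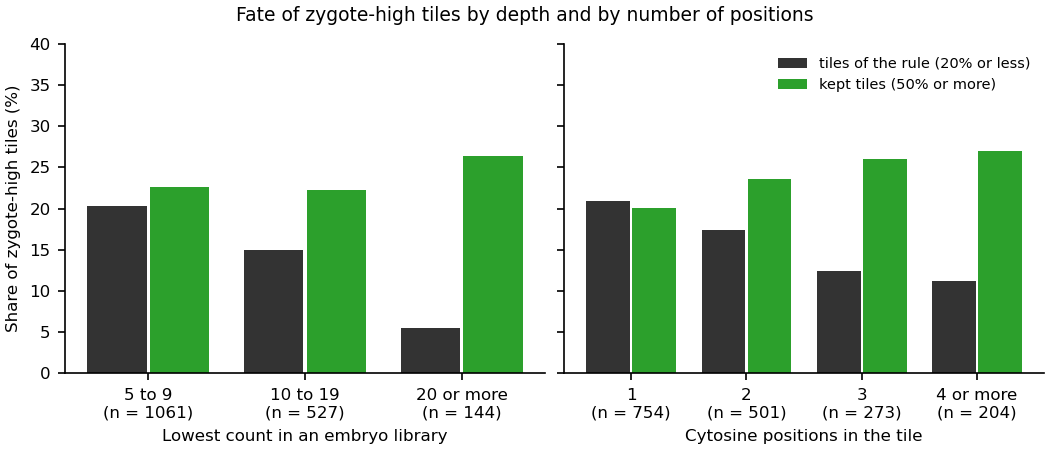
Share of zygote-high tiles (%) that met the blastocyst limit of 20% (dark bars) or stayed at 50% or more (green bars), by the lowest count in an embryo library (left) and by cytosine positions in the tile (right). Dark bars fall from 20.3% to 5.56% with the lowest summed count and from 21.0% to 11.3% with positions.

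The 302 tiles were scattered over all 19 autosomes. Among zygote-high tiles, the share that met the rule ran from 10.4% on chromosome 17 to 25% on chromosome 16. They formed 298 groups at a spacing of 1000 bp, that is 4 pairs of adjacent tiles and otherwise single tiles. One pair, chr12:87007501-87007600 and chr12:87007601-87007700, read 33.9% and 53.6% in WT zygote replicate 1 and 59.5% and 33.3% in CKO blastocyst replicate 2. Their 3 positions had the same pooled counts, 108 in zygotes and 79 in blastocysts, so the pair may be read by the same reads and is not counted as agreement between tiles. The median distance to the nearest tile unmethylated in sperm (10% or less in both libraries) was 41400 bp, against 45900 bp for all sperm-methylated tiles and 58000 bp for kept tiles. Only 10 tiles (3.31%) lay within 2000 bp of such a tile, against 4.06% of sperm-methylated ones.

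Single cytosines within a tile are given as a description, since the tile was chosen for a fall in the same counts and its cytosines often share reads. At 132 tiles at least 2 positions had 5 or more pooled counts at each stage. Of their 340 positions, 338 were lower in blastocysts than in zygotes, 285 of them by at least 50 points. The range over the positions of a tile had a median of 11.9 points in zygotes and 10.0 in blastocysts. The tiles with the most positions were chr9:110791101-110791200 and chr14:58314901-58315000 with 7 each and chr10:9545101-9545200 with 6. At the first of these the zygotes read 80.0% and 83.3% in WT and 92.9% and 45.5% in CKO, and the blastocysts 0%, 8.33%, 3.12% and 0%.

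Other sperm-methylated tiles 200 to 2000 bp away were found for only 12 of the 302 tiles, 13 neighbours in all. They averaged 60.3% over the zygote libraries (41.5% to 77.1%) and 26.6% over the blastocyst libraries (18.2% to 32.9%). The 15 neighbours of kept tiles averaged 71.9% and 39.5%. The neighbours of the 302 tiles were thus near the general levels of 63.5% and 30.7%, within the range over their own libraries.

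At the edges of the rule the values were continuous. The tiles chr8:124986701-124986800 and chr10:7638901-7639000 were just inside the zygote limit at 70%, and chr8:109936901-109937000 and chr15:37096101-37096200 just outside at 69.97% and 69.88%. At the blastocyst limit, chr7:128229601-128229700 and chr5:118309601-118309700 were inside at 20.0%, and chr5:75609201-75609300 and chr9:57457001-57457100 outside at 20.04% and 20.08%.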

How the data were processed

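The deposited files give, per cytosine position, methylated and unmethylated read counts and the authors' percent computed from them, which the counts returned within 0.001 points. Trim Galore (version not stated), Bismark 0.10.1 and the build mm9 are named in the submitters' processing notes, without settings. Counts were summed over 100-bp tiles starting at base 1, and a tile's percent was recomputed from the sums. The test was edgeR 4.0.16 (R 4.3.3, quasi-likelihood, negative binomial dispersion set to 0, a depth term per library) in a fit of the 8 embryo libraries over 14506 tiles, with Benjamini-Hochberg adjustment at 0.05; limma 3.58.1, a likelihood ratio test, a common dispersion and a replicate block were alternatives. The scripts were tested on simulated data. Group values are means and SD of 2 library means. The ± of a difference is the square root of the summed squared SDs of its groups. That of a share of the zygote level combines the relative SDs in the same way. Named tiles were the 8 deepest, the 5 extremes of each genotype difference and of the fall (at least 10 counts in each embryo library), the 3 with most positions, the largest group and the tiles at each limit. The rule gave 35 tiles besides those at the limits; 1 tile on chromosome 18 is not named. Tiles that passed the stage test were picked out after their values were seen. The set, lists and settings were chosen with earlier results of these data known. No genome of the files' build was used, so tiles carry no gene annotation or sequence.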

Additional observations from a re-analysis of the deposited data

Results flagged for a closer look

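At chr4:124812901-124813000 the genotype difference had opposite signs at the 2 stages in every library. WT zygotes read 100% and 85.7% and CKO zygotes 71.4% and 55.6%, a difference of -29.4 points. WT blastocysts read 11.1% and 0% and CKO blastocysts 20.0% and 40.0%, a difference of 24.4 points. The difference changed by 53.8 points between the stages. The edgeR interaction test gave an adjusted p of 1 (Benjamini-Hochberg over 14506 tiles), so the change did not pass. The tile had 2 positions, 10 summed counts in its thinnest library and at least 5 at the best-covered position of each embryo library. It was 1 of 5 tiles of the 302 with CKO below WT in zygotes and above WT in blastocysts without overlap, a pattern seen at 0.917% of all covered tiles and 1.74% of sperm-methylated ones. The reverse was seen at 4, against 1.25% and 2.32%.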

How the results depend on the processing

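With a minimum of 10 counts in each embryo library, the rule gave 87 tiles, a blastocyst CKO minus WT of 3.89 points and a CKO fall of -66.5 points. Stricter limits (80% and 10%) gave 43 tiles, a zygote difference of 5.05 points and falls of -81.0 (WT) and -80.2 (CKO). Looser limits (60% and 30%) gave 1087 tiles, differences of 9.44 and 7.82 points and falls of -54.1 and -55.8. Pooled counts gave falls of -63.3 and -64.3. Leaving out 1 library at a time, its count minimum included, and choosing again gave 312 to 482 tiles, a zygote difference of 4.24 to 7.36 points, a blastocyst difference of 2.49 to 5.95 and a change between stages of -4.23 to 1.14. The falls then ran from -69.3 to -66.1 in WT and from -71.0 to -67.3 in CKO. The set was 482 tiles without WT zygote replicate 2 and 464 without CKO blastocyst replicate 1. The zygote difference was 4.24 without CKO zygote replicate 2, and the blastocyst difference 2.49 without WT blastocyst replicate 2. CKO stayed above WT at both stages in these settings. No member passed a genotype or interaction test in any setting, 0 to 0 with libraries left out. Over all tiles, the likelihood ratio test called 4 in zygotes and 2 for the interaction, limma and a common dispersion called 0 for the interaction, and leaving out libraries gave 0 to 3. For the fall between stages, the likelihood ratio test called 88 of the 302 in WT and 81 in CKO (2.21% and 2.32% of all tiles), limma 0 and 0, a common dispersion 0 and 0, and leaving out libraries 0 to 4 and 0 to 17. The left-out readings at 20 counts, on 6 to 16 tiles, gave 33.6% in blastocysts and 65.7% in zygotes. The general levels of sperm-methylated tiles at that minimum were 34.6% and 65.8%. Of 210 results under another setting, 59 moved by more than the spread between replicates or 1.5 times. No value larger than its spread changed sign. The change of the genotype difference between stages, which is smaller than its spread, turned from -1.66 to 0.793 under the stricter limits. It was 0.217 and 1.14 without WT zygote replicates 1 and 2, and 0.0633 and 0.566 without CKO zygote replicates 1 and 2. The cause of each move was not tested. Settings on the left-out readings' depth, the stage calls and the neighbours were chosen after seeing the data.

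Tile by tile, the deviations of same-numbered libraries from their group means were not correlated (r between -0.00633 and 0.0214 over 14506 tiles). A shift shared by all tiles of a library drops out of this r, and single tiles were noisy. It cannot say if same-numbered libraries share a batch. With the replicate block, 0, 0 and 0 of the 302 tiles passed in zygotes, in blastocysts and for the interaction, and 0, 0 and 1 of all tiles. The block left 0 stage calls in WT and 6 in CKO. Depth limits single tiles: 215 of the 302 had an embryo library with fewer than 10 counts.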

Other observations

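On the X chromosome, left out of the rule, 14 tiles had the coverage, 5 of them were sperm-methylated and 1 met the limits for zygotes and blastocysts.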
